A study of Mus musculus with 66 samples.

Results

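The mouse genes Saa1, Saa2 and Saa3 encode serum amyloid A proteins, and they are the 3 genes described here out of 30452 genes in the deposited table. They were picked by symbol with measured levels of these same samples known. Differences between groups of samples are therefore given for these 3 genes as a description, with no test. RNA was sequenced from 66 gut samples of 19 C57Bl/6 mice, bought at 6 weeks of age and with no transgene or mutation named in the labels. The injured mice received 3% dextran sulfate sodium (DSS), a detergent-like polymer that damages the lining of the colon, for 6 days from day 0. Uninjured mice were killed at day 0 (4 mice), and DSS mice at day 3, 6, 9, 14 or 20 (3 mice each), so that day 3 mice were still on DSS. Mid-colon, rectum and anus were taken from every mouse, and squamous neo-epithelium, a skin-like lining that appears at the anorectal junction after injury, was taken from the 9 mice of days 9, 14 and 20. There was no uninjured neo-epithelium. The muscle layer is described as removed from every section, although skeletal muscle markers were still present in every anal sample.

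Serum amyloid A proteins are small apolipoproteins of the acute-phase response. Hepatocytes secrete SAA1 and SAA2 into blood, where they travel on high-density lipoprotein, when interleukin-6, interleukin-1 and tumour necrosis factor reach the liver. The gut lining also makes them in contact with bacteria and interleukin-22. SAA3 is made mostly outside the liver, by macrophages, fibroblasts, fat cells and some epithelia. The proteins bind retinol, attract phagocytes through FPR2 and act on TLR2 and TLR4, and their genes are switched on by C/EBP, NF-kB and STAT3 factors.

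The genes lie together on mouse chromosome 7 (GRCm38, GENCODE annotation) within 42316 bases. Saa3 spans chr7:46711998-46715700 on the minus strand, and Saa4 spans chr7:46727998-46732603 on the same strand. Saa1 spans chr7:46740497-46742980 on the minus strand, and Saa2 spans chr7:46751790-46754313 on the plus strand, so that the pair points away from each other across a gap of 8809 bases. The Saa1 and Saa2 coding sequences, 366 bases each, were identical at 95.1% of positions, against 74.3% for Saa1 and Saa3. Of the 532 windows of 75 bases (the read length) in the Saa2 transcript, 25 also occur in the Saa1 transcript, and 0 of the 481 windows of Saa3 occur in it. Reads of Saa1 and Saa2 can therefore be exchanged in part, and the Saa2 level in particular is uncertain.

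The promoters of the 3 genes are shown because those of Saa1 and Saa2, which lie apart and on opposite strands, are alike in sequence and that of Saa3 is not. Each sequence covers the bases from 250 to 51 before the RefSeq start of the gene (GRCm38.p6), 5′ to 3′ on the strand of the gene. They are chr7:46743031-46743230 (minus) for Saa1, chr7:46751583-46751782 (plus) for Saa2 and chr7:46715727-46715926 (minus) for Saa3. Capitals mark matches to motif letters searched on both strands, for C/EBP TTGCNNAA and for NF-kB a run of GG, any 3 bases, TT, any base and CC.

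Saa1: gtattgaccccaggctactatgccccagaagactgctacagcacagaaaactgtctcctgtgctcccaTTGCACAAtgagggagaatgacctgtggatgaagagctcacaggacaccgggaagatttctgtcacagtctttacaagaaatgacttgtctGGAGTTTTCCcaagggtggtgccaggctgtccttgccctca
Saa2: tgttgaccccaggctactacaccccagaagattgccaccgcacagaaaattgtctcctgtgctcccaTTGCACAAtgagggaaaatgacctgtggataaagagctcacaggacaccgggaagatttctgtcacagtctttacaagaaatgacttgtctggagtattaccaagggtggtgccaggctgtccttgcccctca
Saa3: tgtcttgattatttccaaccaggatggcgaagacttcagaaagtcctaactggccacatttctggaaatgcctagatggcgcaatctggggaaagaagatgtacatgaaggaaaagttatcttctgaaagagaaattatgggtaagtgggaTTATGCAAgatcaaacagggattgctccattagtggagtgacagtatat

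Aligned end to end, the Saa1 and Saa2 windows matched in 93.5% of aligned columns, and the Saa1 and Saa3 windows in 52.3%. The same C/EBP match lay 182 to 175 bases before the start of Saa1 and 183 to 176 bases before that of Saa2. Saa3 held a C/EBP match 99 to 92 bases before its start. The NF-kB letters matched in Saa1, 91 to 82 bases before its start, and in neither of the other two windows. The letters TTCNNNGAA, searched for STAT, matched in none of the 3. Over 32851 mouse promoter windows of the same 200 bases, 8.1% held the C/EBP letters, 10.4% the NF-kB letters and 5.8% the STAT letters. The motifs were chosen after the sequences had been seen, and a match describes letters, not binding.

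Levels are in TPM, a length-adjusted share of the transcripts of each library, so levels of different genes can be set side by side. A difference is on the log2(TPM + 1) scale with its standard error (SE), which understates the change of genes with low levels. The section labels were checked against marker genes of each epithelium. All 8 squamous markers were above 1 TPM in every anal and neo-epithelial sample, with sums of 8142 to 22769 TPM in anus and 11749 to 26142 TPM in neo-epithelium, and at most 22.3 TPM in mid-colon. The 8 colonic epithelium markers summed to between 6148 and 16372 TPM in mid-colon and rectum. Some rectal samples of day 9, 14 or 20 held squamous markers too, with sums up to 784 TPM. In these bulk samples a change in the number of cells of one type and a change in RNA per cell cannot be told apart.

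Saa1 was among the most abundant transcripts of the uninjured colon. At day 0 the 4 mice had 2298, 2716, 3031 and 5378 TPM of Saa1 in mid-colon. The corresponding levels were 1496, 1711, 1509 and 2856 TPM in rectum and 711, 598, 330 and 848 TPM in anus. Saa1 thus ranked between 18th and 88th of all genes in every uninjured sample of mid-colon or rectum, and it was lower in anus than in rectum of the same mouse in 19 of 19 mice over the whole course. Mid-colon and rectum stood closer, with rectum higher in 4 of 19 mice.

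At day 3, while the mice were still receiving DSS, Saa1 was lower in all 3 sections than in any uninjured sample of the same section. The 3 mice had 1115, 1246 and 1361 TPM in mid-colon, a log2 difference from day 0 of -1.36 (SE 0.25). In rectum they had 656, 749 and 547 TPM (-1.50, SE 0.22), and in anus 317, 128 and 280 TPM (-1.38, SE 0.39). Saa2 in mid-colon and rectum was likewise below every uninjured sample, at levels under 1 TPM. Counted over the 3 genes, 3 were below the whole day 0 range in mid-colon, where 3.05% of the genes tested were, and 0 above it (9.21%). In rectum 2 were below it (12.6% of genes) and 1, Saa3, was above it (5.63%). In anus 1 was below it (1.44% of genes). Because these contrasts were known when the genes were chosen, nothing is read from their counts here or below. Only 2 of the 3 genes passed the filter on low levels in each of the day 3 comparisons.

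At day 6, the last day of DSS, Saa1 in colon was several times above its uninjured level, and Saa1 in anus was far below it. Mid-colon held 8969, 9022 and 14549 TPM, a difference of 1.73 (SE 0.28) and a 3.23-fold higher mean than at day 0. Rectum held 7865, 8943 and 14621 TPM, a difference of 2.47 (SE 0.27) and a 5.53-fold higher mean. These 6 samples placed Saa1 between 7th and 13th of all genes, with up to 1.46% of all transcripts. The anus of the same mice held 53.3, 13.5 and 42.2 TPM, a difference of -4.18 (SE 0.47). No day 6 sample of any of the 3 sections overlapped the day 0 range of that section, and the direction in anus was opposite to that in colon. This difference between sections was not tested.

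The higher Saa1 level of the colon lasted to day 9 and was no longer seen at day 20. At day 9 mid-colon held 7642, 3795 and 6643 TPM (0.86, SE 0.30, overlapping day 0) and rectum 5955, 4350 and 6055 TPM (1.56, SE 0.24, no overlap). At day 14 both sections overlapped day 0, with 2239 to 3478 TPM in mid-colon and 2466 to 3496 TPM in rectum. At day 20 they held 1290, 4966 and 2197 TPM and 953, 1858 and 1593 TPM, differences of -0.40 (SE 0.42) and -0.37 (SE 0.29). Anal Saa1 reached its lowest level at day 9, with 6.78, 25.7 and 4.72 TPM (-5.80, SE 0.52). It remained below every uninjured sample at day 14 (36.6, 76.2 and 9.66 TPM) and at day 20 (197, 12.1 and 93.4 TPM; -3.24, SE 0.81).

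**Figure D1:**
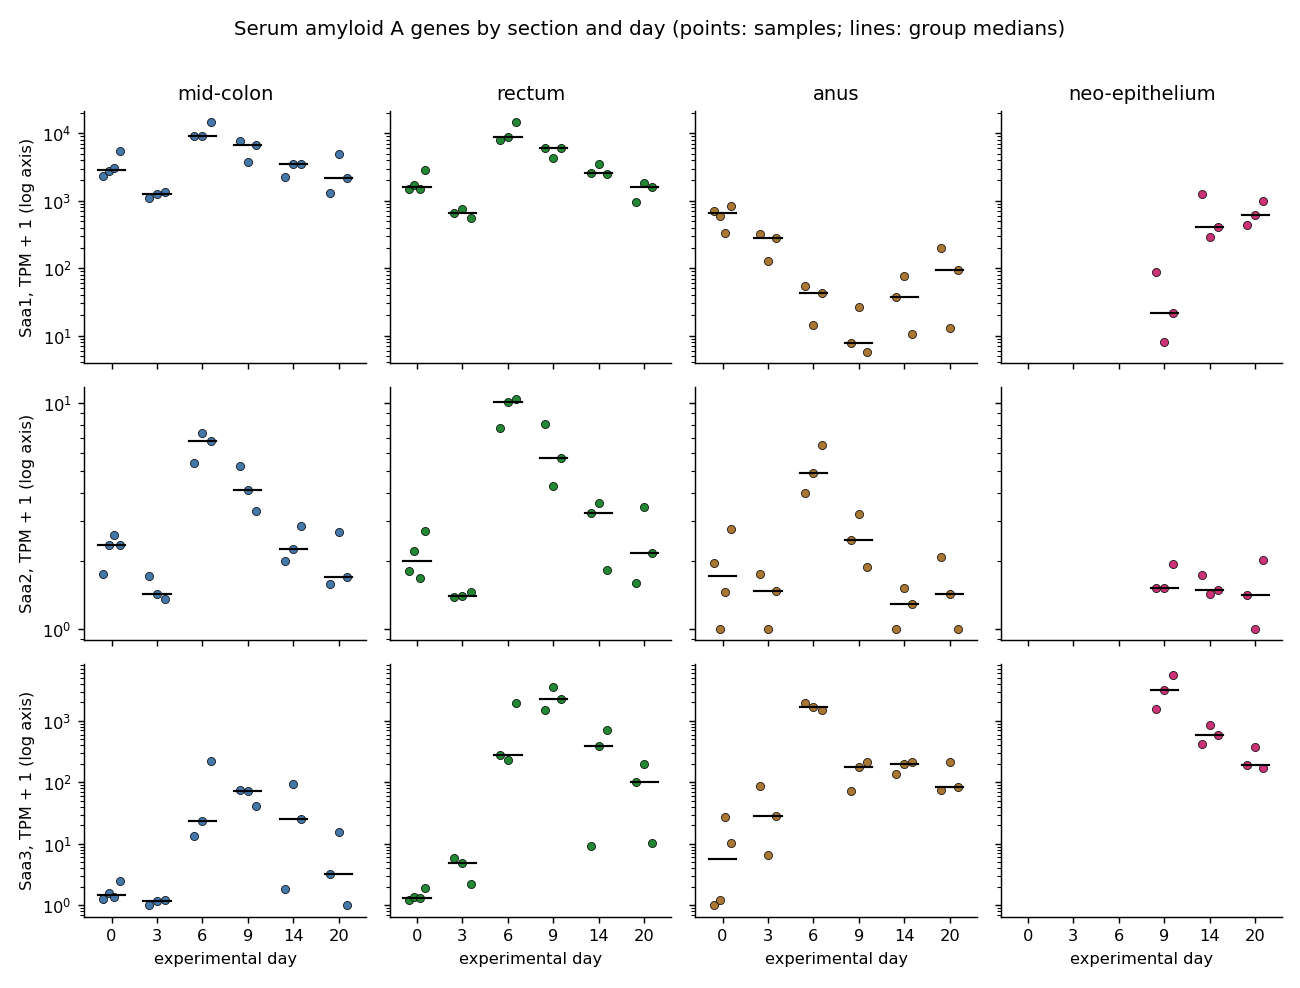
Level of Saa1, Saa2 and Saa3 (rows; TPM + 1 on a log axis) in each sample of mid-colon, rectum, anus and neo-epithelium (columns) by experimental day, with lines at group medians. Saa1 peaks at day 6 in mid-colon and rectum while it is low in anus, and Saa3 starts near 0 in mid-colon and rectum and reaches 1524 to 5486 TPM in rectum and neo-epithelium at day 9.

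Colonic epithelium markers of the anus were, like its Saa1, below the day 0 range at days 6, 9 and 14. All 8 were above 1 TPM at day 0, with sums of 1230 to 3941 TPM, and the sums were 75.4 to 175 TPM at day 6, 88.6 to 116 TPM at day 9, 178 to 470 TPM at day 14 and 450 to 1257 TPM at day 20. Set per TPM of that marker sum, a ratio added after the data had been seen, anal Saa1 was 0.215 to 0.578 at day 0 and 0.179 to 0.463 at day 6, so that the groups overlapped. Later the ratio was mostly lower, at 0.0414 to 0.290 at day 9 (median 0.0583) and 0.0542 to 0.292 at day 14 (median 0.0779), against a median of 0.275 at day 0. At day 20 it was 0.0268 to 0.157, below all of day 0. At day 3 the ratio was 0.0522 to 0.0700 in anus, below all of day 0, although the marker sums were as high as 2453 to 5973 TPM. In mid-colon and rectum the day 6 marker sums, 10916 to 15607 TPM, were close to those of day 0, 12000 to 14192 TPM. There the ratio was 0.634 to 1.33 in mid-colon and 0.504 to 1.12 in rectum at day 6, against 0.186 to 0.429 and 0.107 to 0.233 at day 0. The higher Saa1 of the colon was thus also seen relative to these markers.

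Markers of hepatocytes, the textbook source of Saa1, were low. The 7 of 8 hepatocyte markers found in the table summed to between 1.12 and 161 TPM over all samples. The level of Alb, which encodes albumin, was at most 0.790 TPM in mid-colon at day 0 and 0.113 TPM at day 6. Most of the sum came from Ttr, the transthyretin gene, with a mean of 39.6 TPM in uninjured mid-colon, and from Tat, the tyrosine aminotransferase gene, with 36.0 TPM.

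**Figure D2:**
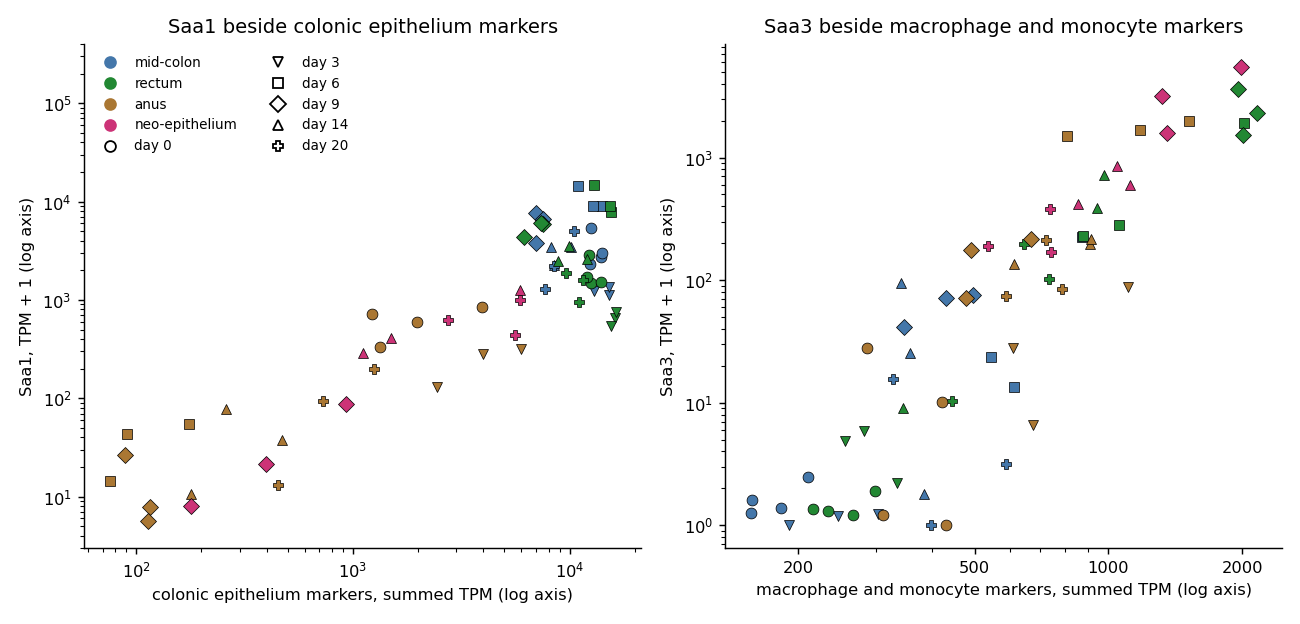
Saa1 (left; TPM + 1) against the summed TPM of 8 colonic epithelium markers, and Saa3 (right; TPM + 1) against the summed TPM of 8 macrophage and monocyte markers, all on log axes, with 1 point per sample coloured by section and shaped by day. Anal samples of days 6 and 9 lie at the lower left of the Saa1 panel, with marker sums of 75.4 to 175 TPM, and the day 9 rectal and neo-epithelial samples lie at the upper right of the Saa3 panel.

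Saa3 behaved differently from Saa1 in time and place. In uninjured colon it was close to absent, at 0.248 to 1.46 TPM in mid-colon and 0.211 to 0.908 TPM in rectum. The 4 uninjured anal samples were uneven, with 0, 0.221, 26.7 and 9.17 TPM. Skeletal muscle marker sums of the same samples were 1247, 3090, 14536 and 6002 TPM. Adipocyte marker sums were 35.6, 306, 1524 and 363 TPM. Both ranked as Saa3 did, and macrophage and monocyte sums (430, 311, 285 and 423 TPM) did not. A link to Saa3 was not tested. At day 3 mid-colon held at most 0.231 TPM, below every uninjured sample, while rectum held 4.84, 3.85 and 1.19 TPM, above every uninjured sample (1.48, SE 0.33). In anus day 3 values of 87.0, 5.55 and 26.9 TPM overlapped day 0.

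Anal Saa3 was highest at day 6 and rectal Saa3 at day 9. The anus of day 6 held 1985, 1676 and 1504 TPM, a log2 difference from day 0 of 8.64 (SE 1.06). Rectum at day 6 held 282, 227 and 1922 TPM (8.46, SE 0.64) and at day 9 it held 1524, 3591 and 2306 TPM (10.68, SE 0.28). By day 9 the anus was back to 71.0, 175 and 216 TPM (5.02, SE 1.10), still above all of day 0. Mid-colon stayed far below rectum, with 12.4, 22.7 and 222 TPM at day 6 (4.68, SE 0.78) and 75.2, 70.8 and 40.7 TPM at day 9 (5.24, SE 0.29). Rectum exceeded mid-colon of the same mouse in 15 of 19 mice, and the 4 exceptions were the uninjured mice.

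Saa3 did not return to its uninjured range in rectum or anus within 20 days. Rectum held 8.12, 387 and 718 TPM at day 14 (6.59, SE 1.33) and 100, 197 and 9.38 TPM at day 20 (5.38, SE 0.86). The anus held 134, 197 and 217 TPM at day 14 (5.39, SE 1.09) and 73.8, 213 and 83.5 TPM at day 20 (4.68, SE 1.13). All of these samples lay above the day 0 range of their section. Rectal samples of mice 14 and 19, the lowest in Saa3 at days 14 and 20, had squamous marker sums of 25.4 and 8.49 TPM. The other rectal samples of those days, from mice 15, 16, 17 and 18, had 784, 474, 444 and 270 TPM. Uninjured rectum had 12.9 to 114 TPM. The part of squamous tissue in rectal Saa3 was not tested. In mid-colon the groups overlapped day 0 again, with 0.808, 94.3 and 24.5 TPM at day 14 and 2.19, 14.7 and 0 TPM at day 20. In rectum Saa3 passed the filter on low levels through the injured groups alone, since no uninjured sample there reached 1 TPM.

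Mice 10 and 14 stood apart from the others of their day in several sections. In mouse 10, of day 6, Saa1 and Saa3 were the highest of 3 in both mid-colon and rectum, as were the neutrophil marker sums (2442 and 6289 TPM) and the macrophage marker sums (872 and 2023 TPM). In its anus Saa3, the neutrophil sum and the macrophage sum were instead the lowest of 3. In mouse 14, of day 14, Saa3 and the neutrophil sum were the lowest of 3 in all 4 sections. Without any single mouse of either group, the day 6 difference of Saa3 in rectum was 7.48 to 9.02 and that in mid-colon 3.46 to 5.49. The day 14 difference of Saa3 in rectum was 8.54 without mouse 14 and 5.39 to 6.73 without any other mouse of either group.

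In rectum, myeloid marker sums were above day 0 at days 6 and 9, as Saa3 was, but not at every day. The 8 macrophage and monocyte markers summed to 216 to 298 TPM in uninjured rectum, 878 to 2023 TPM at day 6 and 1961 to 2163 TPM at day 9. The 8 neutrophil markers summed to 609 to 738 TPM, 2061 to 6289 TPM and 12645 to 14589 TPM in the same groups. At day 0 that neutrophil sum came almost whole from Ly6g, with a mean of 639 TPM in rectum. An overlap of the sum with day 0 therefore says little about the other neutrophil markers. At day 3, when rectal Saa3 was above all of day 0, neutrophil sums (398 to 659 TPM) and macrophage sums (255 to 333 TPM) overlapped day 0. At day 20, with Saa3 still above day 0, rectal neutrophil sums (518 to 1477 TPM) overlapped it and macrophage sums (445 to 734 TPM) did not. Of the 5 neutrophil markers tested there, 2 rose (2.79% of all genes did) and 0 fell (4.88%). Their median difference was 2.46, against -0.03 over all genes. Markers that passed the filter through injured samples alone had to differ. In anus the macrophage sums were 285 to 430 TPM at day 0, 808 to 1516 TPM at day 6 and 477 to 669 TPM at day 9, a smaller range than that of Saa3. Anal neutrophil sums did not follow Saa3. They were 862 to 2027 TPM at day 0, 1424 to 3923 TPM at day 6, 1570 to 3427 TPM at day 9, when Saa3 was far lower, and highest at day 14, with 3568 to 8005 TPM. Of the 7 neutrophil markers tested in anus at day 6, 4 rose (8.64% of all genes did), and Ly6g and Ltf fell (6.37%). Fibroblast markers, 7 of 7 of them detected in every sample, summed to 1646 to 2356 TPM in anus at day 0 and 2145 to 3055 TPM at day 6, and adipocyte markers to 35.6 to 1524 TPM and 63.0 to 302 TPM. Skeletal muscle markers, present in anus at 1247 to 14536 TPM, reached at most 133 TPM in any sample of the other sections. The part of these cells in the Saa3 level was not tested.

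Saa2, the near copy of Saa1, was listed at no more than 9.43 TPM in any sample. It was highest in rectum at day 6, with 6.78, 9.10 and 9.43 TPM, against 0.677 to 1.71 TPM at day 0 (2.18, SE 0.20). Mid-colon at day 6 held 4.42 to 6.35 TPM, against 0.751 to 1.60 TPM (1.53, SE 0.20). As a share of Saa1 plus Saa2, Saa2 was between 0.0250% and 0.132% in every mid-colon and rectal sample. Anus differed, because Saa2 held 3.01, 3.87 and 5.50 TPM at day 6, above the 0 to 1.77 TPM of day 0 (1.59, SE 0.36), while Saa1 was at its reduced level. The Saa2 share there was 5.34% to 22.3% at day 6 and 7.93% to 17.8% at day 9, against at most 0.208% at day 0. The sum of both genes followed Saa1 in anus, with a difference of -3.99 (SE 0.43) at day 6.

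At day 6 all 3 genes lay above the whole day 0 range in mid-colon, as did 8.41% of the genes tested there, and in rectum, as did 12.4%. None lay below it there (21% and 41.3% of genes). In anus 2 lay above it (18.3% of genes) and 1 below (10.9%). At day 9 the count above was 2 in mid-colon (29.2% of genes, with 18.1% below), 3 in rectum (34.6%, with 21.6% below) and 1 in anus (10.6%), where 1 was below (9.26%). At day 14 and again at day 20, 1 gene, Saa3, was above in rectum (11.3% and 10.2% of genes) and in anus (9.77% and 11.2%), where Saa1 was below (7.17% and 7.65%). None lay below in rectum (18.3% and 16%). In mid-colon at those days 0 lay above (8.97% and 8.72%) and 0 below (8.06% and 8.45%).

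Neo-epithelium held both genes in changing proportion. At day 9 Saa3 stood at 1579, 3189 and 5486 TPM, the highest group mean of the gene in the study, and Saa1 at 85.6, 6.96 and 20.4 TPM. At day 14 Saa3 held 413, 848 and 598 TPM and Saa1 held 1266, 285 and 412 TPM. At day 20 Saa3 was at 190, 376 and 168 TPM and Saa1 at 442, 620 and 998 TPM. Saa3 of day 9 lay above all later samples, and Saa1 of day 9 lay below them all. Colonic epithelium marker sums in neo-epithelium were 178 to 932 TPM at day 9, 1118 to 5889 TPM at day 14 and 2759 to 5913 TPM at day 20, so they moved with Saa1. Per TPM of that sum Saa1 was 0.0390 to 0.0919 at day 9, 0.215 to 0.274 at day 14 and 0.0792 to 0.225 at day 20. Markers of several other cell types had lower median sums at day 14 than at day 9, as Saa3 did. Squamous epithelium sums were 24185 to 26142 TPM at day 9 and 11749 to 17660 TPM at day 14, without overlap. Adipocyte sums were 10.4 to 20.7 TPM and then 4.20 to 63.9 TPM, which overlapped. Neutrophil sums were 8630 to 19956 TPM at day 9 and 5034 to 10441 TPM at day 14, which overlapped. Macrophage and monocyte sums were 1320 to 1990 TPM and then 855 to 1120 TPM, and fibroblast sums 2088 to 3091 TPM and then 910 to 1219 TPM, both without overlap. Against rectum over days 9 to 20, 6 of 7 fibroblast, 1 of 8 neutrophil and 0 of 8 macrophage markers were higher, where 20.9% of all genes were. Lower were 0, 1 and 0 of them, where 22% of all genes were. The part of these cells in the Saa3 level was not tested here either.

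Set against the other sections of the same 9 mice, Saa1 was lower in neo-epithelium than in rectum in 9 of 9 mice and higher than in anus in 8 of 9. The log2 differences over days 9 to 20 were -3.77 (SE 0.79) from rectum and 2.89 (SE 0.64) from anus. Saa3 was higher in neo-epithelium than in anus in 9 of 9 mice (2.40, SE 0.45) and higher than in rectum in 7 of 9 (1.49, SE 0.72). The groups overlapped in each of these comparisons when the mice were not matched. Of the 3 genes, 0 were wholly above or wholly below, against 5.22% and 1.93% of the genes tested from rectum and 4.62% and 6.73% from anus.

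The balance of Saa1 and Saa3 differed between sections. Saa3 never exceeded Saa1 in a mid-colon or rectal sample, although in rectum at day 9 Saa1 was only 1.21 to 3.91 times Saa3. In uninjured rectum Saa1 had been 3146 to 7088 times Saa3. In anus Saa3 was 35.7 to 124 times Saa1 at day 6, and it exceeded Saa1 in 3 of 3 mice at days 6, 9 and 14 and in 1 of 3 at day 20. In neo-epithelium it exceeded Saa1 in 3 of 3 mice at day 9, 2 of 3 at day 14 and 0 of 3 at day 20. Across the 6 group means of a section, Pearson's r of Saa1 and Saa3 on the log2 scale was 0.83 in mid-colon, 0.77 in rectum and -0.79 in anus. These values describe 6 points, each a mean of 3 or 4 mice.

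**Figure D3:**
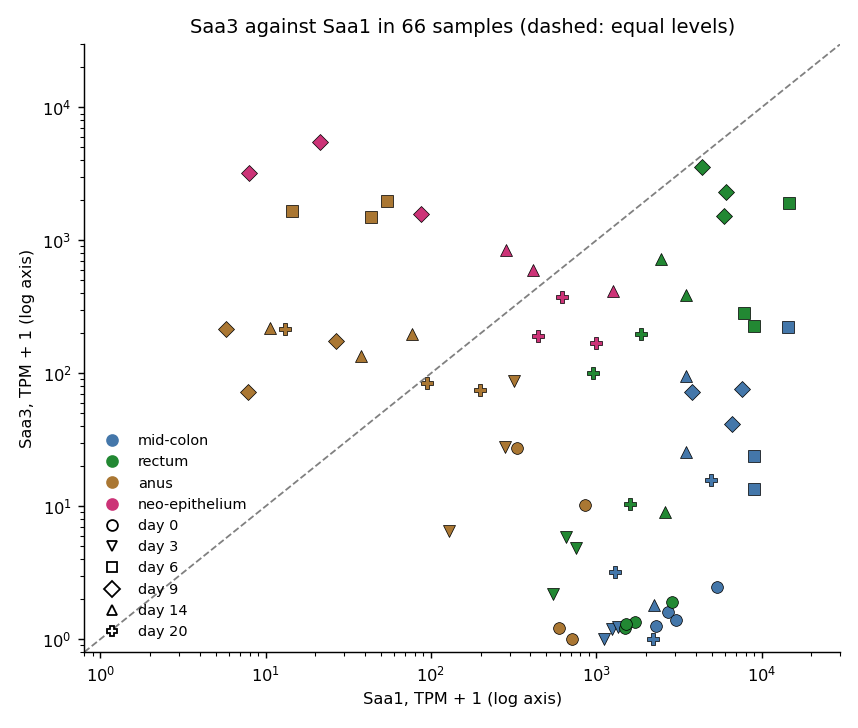
Saa3 against Saa1 (TPM + 1, log axes) in the 66 samples, coloured by section and shaped by day, with a dashed line at equal levels. All mid-colon and rectal samples lie below the line, and the anal samples of days 6, 9 and 14 and the neo-epithelial samples of day 9 lie above it.

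Ordered by mean level over the 21 groups of section and day, Saa1 ran from mid-colon at day 6 (10847 TPM) and rectum at day 6 (10476 TPM) to anus at day 6 (36.3 TPM) and anus at day 9 (12.4 TPM). Of the 20 pairs of neighbours in that order, 17 overlapped in their ranges. The 3 gaps lay between rectum at day 6 and mid-colon at day 9, between mid-colon at day 3 and neo-epithelium at day 20, and between anus at day 0 and anus at day 3. Saa3 ran from neo-epithelium at day 9 (3418 TPM), rectum at day 9 (2473 TPM) and anus at day 6 (1722 TPM) to mid-colon at day 3 (0.140 TPM), and 20 of its 20 neighbouring pairs overlapped. For Saa2 19 of 20 did, the exception being rectum at day 6 and the group after it.

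The genes most like each member were sought over the 21 group means among 16008 genes, by Pearson's r of log2(TPM + 1). Those most like Saa1 were 2010003K11Rik (r = 0.97), Gna14, Tat, BC025446, Sgk2, Rdh16, Car4 and Gm8540. Car4 encodes a carbonic anhydrase of the colonic surface, and Tat was 1 of the hepatocyte markers above. Those most like Saa3 were Clec4d (r = 0.97), Tyrobp, Pirb, Lgmn, Ms4a6d, Ms4a6c, Fcer1g and Sirpb1c, of which Tyrobp and Fcer1g encode signalling adaptors of myeloid cells. For Saa2 the highest were Adora1 (r = 0.81), Gm15925, Sprr2b, Ak4, Apex2, Eaf2, Asb18 and Fcna. Saa1 and Saa2 themselves had r = 0.48 over all groups, 0.98 in mid-colon, 0.97 in rectum and -0.39 in anus. All of these are descriptions over groups that share sections and mice.

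The rest of the pathway was read from 74 genes in 7 lists, tested within all genes by limma with Benjamini-Hochberg adjustment at 0.05. Days 6, 9 and 20 were tested against day 0, and days 3 and 14 were not. In rectum at day 9, 44 of the 58 pathway genes tested rose against day 0 and 4 fell, where 33.5% of all 13140 genes rose and 20% fell. In rectum at day 6, 28 of 54 rose and 3 fell (all genes 11.5% and 37.2%). In mid-colon 17 of 47 rose and 4 fell at day 6 (all genes 4.93% and 9.99%), and 20 of 51 rose and 8 fell at day 9 (26.5% and 17%). In anus 22 of 57 rose and 1 fell at day 6 (8.64% and 6.37%), and 7 of 53 rose and 0 fell at day 9 (1.46% and 3.63%). At day 20 the counts were 2 of 46 higher and 0 lower in mid-colon (0.677% and 0.883%), 6 of 47 higher and 4 lower in rectum (2.79% and 4.88%) and 3 of 53 higher and 0 lower in anus (1.09% and 0.371%). Genes filtered out as too low were not tested, and a gene that passed only through the injured group had to differ. All comparisons of one section share its day 0 samples.

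The split of calls depended on the scaling. The median difference of all genes was -0.24 in mid-colon and -0.27 in rectum at day 6, and 0.09 and 0.13 at day 9. With TMM factors, which assume that most genes do not change, these medians were -0.04, -0.07, -0.13 and -0.15. The share of higher among all called genes then moved from 33.1% to 52.5% and from 23.7% to 48.3% at day 6, and from 61% to 41.9% and from 62.7% to 40.6% at day 9. The pathway counts moved less, to 23 higher and 3 lower in mid-colon and 34 and 2 in rectum at day 6, and to 18 and 12 and 42 and 6 at day 9. Single mice decided the small counts. Without mouse 8 the 23 calls in anus at day 6 were 13, and without mouse 2, 12 or 13 the 7 calls there at day 9 were 4. The 10 calls in rectum at day 20 were 26 without mouse 19 and 0 to 4 without any other mouse. The 2 calls in mid-colon at day 20 were 7 without mouse 19 and 6 without mouse 4, and the 3 in anus were 1 without mouse 2, 3, 4, 18 or 19.

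Saa4, the remaining member of the cluster and a constitutive apolipoprotein in liver, was listed at no more than 0.916 TPM in any sample and entered no test.

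Among 8 receptors of serum amyloid A, Fpr2, the formyl peptide receptor of phagocytes, and Tlr2, a bacterial lipopeptide sensor, rose in rectum at days 6 and 9, in mid-colon at day 9 and in anus at day 6. Fpr2 ranged from 0 to 0.484 TPM in uninjured rectum and from 64.8 to 165 TPM at day 9 (log2 difference 6.40, SE 0.29). There Fpr2 passed the filter through injured samples alone and so had to differ, and no p is given for it. It was also higher in anus at day 6 (3.06, SE 0.41, adjusted p = 0.00218). Its call in anus at day 9 (1.85, SE 0.44, adjusted p = 0.0476) was lost without any one of mice 2, 3, 4, 12 or 13. Tlr2 was higher in rectum at day 9 by 3.40 (SE 0.20, adjusted p = 4.2e-06). At day 6 it was higher in anus by 1.32 (SE 0.38, adjusted p = 0.0475) and in mid-colon by 0.64 (SE 0.18, adjusted p = 0.0438). The anal call was lost with TMM factors and without any one of mice 2, 3, 4, 8 or 9, and the mid-colon call without any one of mice 1, 2, 3, 8 or 10. The call of Tlr2 in rectum at day 20 (1.80, SE 0.39, adjusted p = 0.0362) was lost without any one of mice 1, 2, 3, 4, 17 or 18. Of the 7 receptors tested in rectum at day 9, 4 rose and 0 fell, where 33.5% of all genes rose and 20% fell. Their median difference was 1.06, against 0.13 over all genes.

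The cytokines that induce these genes were led by Il1b, which encodes interleukin-1 beta. Its level in rectum was 0.0777 to 0.498 TPM at day 0, 57.0 to 377 TPM at day 6 and 326 to 1603 TPM at day 9 (9.54, SE 0.51). In anus it was 60.8 to 451 TPM at day 6 (5.86, SE 0.63, adjusted p = 0.000842), and in mid-colon 7.85 to 25.4 TPM (3.32, SE 0.33). Il6, for interleukin-6, was 12.6 to 39.3 TPM in anus at day 6, against at most 0.176 TPM at day 0 (4.31, SE 0.35). In mid-colon Il6 did not exceed 0.816 TPM at day 6 and was not tested. Il22, the epithelium-directed cytokine, was listed at 0 in every uninjured sample. It passed the filter in rectum at day 9 alone, with 3.62 to 9.45 TPM (2.61, SE 0.28). Il1b in rectum, Il6 in anus and Il22 passed the filter through injured samples alone and so had to differ, and no p is given for them. In mid-colon the day 6 samples met the filter for Il1b by themselves. Not every uninjured sample there reached 1 TPM, so no p is given for it either. Of the 9 cytokines tested in rectum at day 9, 8 rose (33.5% of all genes did), and of 7 tested in anus at day 6, 4 rose (8.64%). In uninjured mid-colon and rectum 0 of the 11 listed cytokines reached 1 TPM in all samples. Cytokines that passed the filter only through the injured group had to differ, so nothing is read from these counts.

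Among signalling genes Socs3, a feedback inhibitor of STAT3 signalling, rose in all 3 sections at day 6. Its level was 15.9 to 159 TPM in mid-colon at day 6 (3.87, SE 0.68, adjusted p = 0.00767), 158 to 375 TPM in rectum at day 9 (6.76, SE 0.27, adjusted p = 6.44e-07) and 60.4 to 66.7 TPM in anus at day 6 (3.62, SE 0.20, adjusted p = 0.000108). Stat3, the transcription factor below the interleukin-6 and interleukin-22 receptors, rose in rectum at day 9 by 0.93 (SE 0.14, adjusted p = 0.000694) and in anus at day 6 by 0.77 (SE 0.20, adjusted p = 0.0339). The anal call was lost without any one of mice 1, 2, 3, 8, 9 or 10 (adjusted p 0.0524 to 0.132). In mid-colon at day 6 Stat3 differed by 0.15 (SE 0.23, adjusted p = 0.664). Il22ra1, the epithelial subunit of the interleukin-22 receptor, fell at day 6 in mid-colon by 0.77 (SE 0.21), in rectum by 0.71 (SE 0.11) and in anus by 1.73 (SE 0.45). The mid-colon call was lost without any one of mice 1, 2, 3, 8, 9 or 10, and the anal call without any one of mice 8, 9 or 10.

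Of the 8 transcription factors, 3 rose in rectum at day 6 (all genes 11.5%) and 6 at day 9 (33.5%), with median differences of 0.27 and 1.27 against -0.27 and 0.13 over all genes. In mid-colon 2 rose at day 6 (4.93% of all genes), and 1 rose and 1 fell at day 9 (26.5% and 17%), with medians of 0.13 and 0.06. In anus 3 rose at day 6 (8.64%) and 0 at day 9 (1.46%), with medians of 0.59 and 0.29, and at day 20 none was called in these 3 sections. Cebpb, a C/EBP factor of acute-phase genes, rose in rectum by 1.66 (SE 0.25, adjusted p = 0.00157) at day 6 and in anus by 1.30 (SE 0.36, adjusted p = 0.0436). The anal call was lost without any one of mice 1, 2, 4, 8, 9 or 10 (adjusted p up to 0.167). Cebpd rose in mid-colon by 0.92 (SE 0.24, adjusted p = 0.0327) and in anus by 2.05 (SE 0.32, adjusted p = 0.00465) at day 6, the former lost without any one of mice 1, 3, 8 or 10. Nfkbiz, an NF-kB cofactor, rose at day 6 in mid-colon by 1.33 (SE 0.23, adjusted p = 0.00737) and in rectum by 1.17 (SE 0.22, adjusted p = 0.00387). In anus it differed by 0.64 (SE 0.21, adjusted p = 0.0747).

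Other acute-phase genes rose at day 6 in all 3 sections, the anus included. Of 9 tested in mid-colon 7 rose (4.93% of all genes did), of 10 in rectum 8 rose (11.5%), and of 11 in anus 7 rose (8.64%). Their median differences were 1.29, 1.74 and 1.31, against -0.24, -0.27 and 0.07 over all genes. Serpina3n, a serine protease inhibitor, differed by 3.57 (SE 0.24), 4.08 (SE 0.30) and 2.99 (SE 0.23) in those sections. Lcn2, which encodes an iron-scavenging lipocalin, was 161 to 284 TPM in anus at day 6 against 14.4 to 40.9 TPM at day 0 (3.25, SE 0.35, adjusted p = 0.000842). Its highest level was in rectum at day 9, with 491 to 794 TPM (7.46, SE 0.21, adjusted p = 1.15e-07). Mt1, a metallothionein, was the member that fell in mid-colon and in rectum at day 6, and with TMM scaling factors neither call held (adjusted p = 0.0674 and 0.133).

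Partners in lipid and retinol transport split by gene. Apoe, an apolipoprotein, was higher at day 6 in mid-colon by 2.07 (SE 0.18, adjusted p = 0.000403) and in rectum by 2.12 (SE 0.24, adjusted p = 0.000469). Rbp2, the retinol-binding protein of absorptive epithelium, fell in rectum by 1.16 (SE 0.12, adjusted p = 0.000324) at day 6 and by 3.35 (SE 0.34, adjusted p = 6.9e-05) at day 9. In anus at day 6 the median difference of the 10 genes tested was 0.20, against 0.07 over all genes.

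In neo-epithelium 14 of 59 pathway genes tested were higher and 6 lower than in rectum (all genes 20.9% and 22%), and 33 of 56 were higher and 7 lower than in anus (40.1% and 19.7%). With TMM factors the counts against anus were 27 higher and 11 lower, and the share of higher among all called genes moved from 67% to 54.9%. Stra6, the retinol transporter, was higher than in rectum by 3.42 (SE 0.27, adjusted p = 3.4e-08). Fpr2, Il1b and Socs3 differed from rectum by 0.67 (SE 0.54), 0.75 (SE 0.83) and 0.30 (SE 0.50), none of them past the threshold. Against anus they were higher by 2.47 (SE 0.52, adjusted p = 0.000712), 2.37 (SE 0.78, adjusted p = 0.0155) and 1.73 (SE 0.45, adjusted p = 0.00334), and the call of Il1b was lost without mouse 13 (adjusted p = 0.0530).

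**Figure D4:**
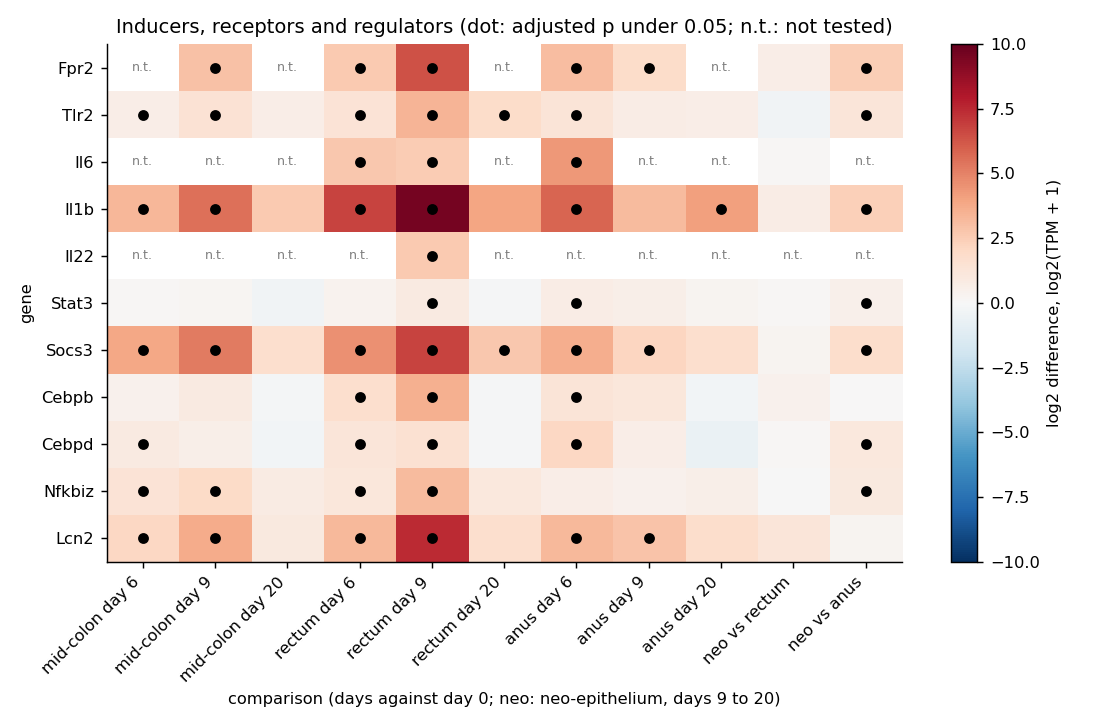
Log2 differences, on log2(TPM + 1), of 11 genes (rows), which are inducers, receptors, regulators and the acute-phase gene Lcn2. Columns are days 6, 9 and 20 against day 0 by section, and neo-epithelium against rectum and anus. Dots mark an adjusted p under 0.05 (limma), also for genes that passed the filter through injured samples alone and so had to differ. The letters n.t. mark genes too low to test, and the darkest cells are those of rectum at day 9, with Il1b at 9.54.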

How the data were processed

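Per the labels' protocols, the mRNA libraries kept strand and were read from 1 end over 75 bases. The authors deposited 1 table of TPM, a relative signal per Ensembl transcript scaled within each library. The submitters' processing notes name CASAVA, kallisto and mm10, and versions are not given in the sources used here. The table holds no read counts, so depth per sample is unknown, no counting interval is given, and a value of 0 means listed at 0. A sample had 11268 to 13789 genes at 1 TPM or more. Rows repeated for 1 transcript were dropped, and 1284 transcripts with no gene identifier were left out. TPM was summed per gene; 1 transcript each of Saa1, Saa2, Saa3 and Saa4 had values. Replicates were separate mice.

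Differences come from limma 3.58.1 (R 4.3.3) fits to log2(TPM + 1), with a mean-dependent prior. Genes needed 1 TPM or more in a number of samples equal to the size of the smaller group. The threshold was a Benjamini-Hochberg adjusted p of 0.05 over all genes, and the script was tested on simulated data. Each day was set against day 0 of its section for the members, and days 6, 9 and 20 for the pathway genes, with only those samples in the fit. For neo-epithelium, the rectum and the anus of days 9, 14 and 20 were the references, and day entered the model as a covariate. The members, gene lists and comparisons were chosen with earlier results of these data known. Named pathway genes were those fixed for every comparison (Saa4, Il6, Il1b, Il22, Stat3, Socs3, Cebpb, Cebpd, Nfkbiz, Lcn2, Fpr2 and Tlr2) and, per list, up to 3 called genes with the largest difference, of which 1 is not reported here. Il22ra1 and Mt1 are named where they were among the few that fell. Alternatives were a pseudocount of 0.1, no filter, a filter at 5 TPM, TMM factors computed on TPM, no trend in the prior, leaving out each mouse, and the mouse as a replicate block. Sections of 1 mouse are paired by its identifier in the labels. Deviations from group means correlated across genes with a mean r of 0.27 between neo-epithelium and rectum and 0.17 between neo-epithelium and anus (9 mice each). Marker lists covered hepatocytes (7 of 8 symbols found), macrophages and monocytes, neutrophils, fibroblasts, adipocytes, skeletal muscle, colonic epithelium and squamous epithelium. Promoter sequences are from RefSeq (GRCm38.p6), where 3 of 3 members matched by symbol, and gene positions from GENCODE M21. Motifs and identities were computed with Python 3.11.15 and Biopython 1.88.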

Additional observations from a re-analysis of the deposited data

Results flagged for a closer look

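Among 9 groups of 4 samples checked for a value far from the rest, 1 was found. Chance gives about 1 in 20 for each group, and so more than that over 9 groups. All 9 groups come from the same 4 uninjured mice. Saa1 in rectum of uninjured mouse 4 was 2856 TPM, against 1496 to 1711 TPM in the other 3 mice.

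Saa1 at days 6 and 9, and Saa3 at day 3, each moved in opposite directions in different sections, with every sample on its own side of day 0. The differences between sections were not tested. Saa1 at day 6 differed from day 0 by 2.47 in rectum and 1.73 in mid-colon, and by -4.18 in anus, on the log2 scale. Colonic epithelium marker sums of the anus were then 75.4 to 175 TPM, against 1230 to 3941 TPM at day 0. Per TPM of these markers anal Saa1 at day 6 (0.179 to 0.463) overlapped day 0 (0.215 to 0.578). At day 9 Saa1 differed by 1.56 in rectum and -5.80 in anus. At day 3 Saa3 differed by -0.51 in mid-colon and 1.48 in rectum, where all levels were under 5 TPM.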

How the results depend on the processing

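Depth is unknown, which leaves the precision of low levels such as those of Saa2 open to question, and 3 or 4 mice per group limit all spreads. With a pseudocount of 0.1 the differences of low genes grew, in the same direction: Saa2 in mid-colon to -1.20 at day 3, 2.07 at day 6 and 1.30 at day 9, in rectum to -1.16, 2.90 and 2.11, in anus to 2.84 and 1.41 at days 6 and 9 and -1 at day 14, and in neo-epithelium against rectum to -2.01. Saa3 moved to -1.62 and 6.52 in mid-colon at days 3 and 9, and to 2.59, 9.99, 12.22 and 6.87 in rectum at days 3, 6, 9 and 20. All other member differences (68 in all, Saa1 plus Saa2 included) moved by less than 1 SD, and 1 near 0, Saa2 in neo-epithelium against anus, changed sign to 0.02. The alternatives for the 24 differences of days 3 and 14 were added after the data had been seen. TMM factors moved 1 of the 68 by more than 1 SD, Saa2 in mid-colon at day 6, to 1.81. The cause was not tested. TMM factors also changed pathway calls from 2 to 4 in mid-colon at day 20 and from 7 to 11 in anus at day 9. With no filter, where more genes are tested, the calls fell to 1 in rectum and 1 in anus at day 20, and with no trend in the prior to 1 in anus at day 20. Leaving out each mouse in turn gave 2 to 7 pathway calls in mid-colon at day 20, 0 to 26 in rectum at day 20, 13 to 24 in anus at day 6, 4 to 9 at day 9 and 1 to 4 at day 20. The mouse as a replicate block, possible for the 9 mice with neo-epithelium, gave 22 pathway calls against rectum in place of 20 and 41 against anus in place of 40. The block could not change the 8 member differences, because each of these mice gave 1 sample of each section. Only their SE can change with the block, and the SE given are those without it.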
